A study of Mus musculus with 20 samples.

Results

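The comparison described here set the left ventricle after transverse aortic banding (TAB), a surgical narrowing of the aorta that raises the pressure against which the ventricle pumps, against the left ventricle after sham surgery, both on day 7. It holds 4 of the 20 arrays of the study, chosen by their titles, with 2 arrays for TAB day 7 and 2 arrays for sham day 7. All mice were male C57BL/6J, 8 weeks old and between 20 and 25 g at surgery. The remaining 16 arrays carry TAB and sham hearts of days 3, 5, 14 and 28, 2 arrays for each surgery and day. The 2 arrays of a surgery and day were technical replicates, and how many hearts went into each RNA is not given in the sources used here. Day 7 therefore had 1 RNA sample for each surgery, and a difference between them cannot be told apart from a difference between those samples of tissue.

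MicroRNAs (miRNAs) are short RNAs that bind messenger RNAs, mostly through the seed, the bases 2 to 8 from their 5′ end, and lower the output of these messengers. In the pressure-loaded heart, miR-21 and the miR-199 family are known from fibroblasts and muscle cells, miR-208a, miR-208b and miR-499 lie within the genes of cardiac myosins, and miR-1 and miR-133 belong to the muscle program. Whole ventricle was measured, so fewer cells of a type and less of a miRNA in each cell cannot be told apart.

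Each level below is a log2 intensity after quantile normalization over the 20 arrays, and each difference is TAB minus sham, so that a difference of 1 is a doubling. A miRNA was called raised or lowered when its difference lay beyond 2 standard deviations (SD) of the differences of all miRNAs on the day, which is the rule of the study's methods and no test. On day 7 this limit was 0.96. Of 928 miRNAs, 35 (3.77%) were raised and 31 (3.34%) were lowered.

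The mature sequences of raised miRNAs are shown first because many of them share a seed. RefSeq annotation of the mouse genome (GRCm38.p6) gave a sequence for 29 of the 35 raised miRNAs. Letters run from 5′ to 3′, and capitals mark the seed.
miR-21: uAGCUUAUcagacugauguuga
miR-199a-3p: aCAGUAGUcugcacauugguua
miR-199a-5p: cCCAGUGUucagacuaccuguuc
miR-23a: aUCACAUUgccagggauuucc
miR-27a: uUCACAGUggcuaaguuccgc
miR-27b: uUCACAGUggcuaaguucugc
miR-24: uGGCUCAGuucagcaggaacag
let-7a: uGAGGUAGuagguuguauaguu
let-7f: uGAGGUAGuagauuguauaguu
let-7i: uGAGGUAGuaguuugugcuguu
miR-98: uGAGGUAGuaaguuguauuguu
miR-16: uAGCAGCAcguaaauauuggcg
miR-195: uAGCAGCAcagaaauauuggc
miR-17: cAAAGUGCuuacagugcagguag
miR-20a: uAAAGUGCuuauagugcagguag
miR-103: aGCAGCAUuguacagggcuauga
miR-107: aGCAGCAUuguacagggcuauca
miR-451: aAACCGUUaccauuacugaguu
Both miR-27 members share 1 seed. The 4 raised members of the let-7 family, miR-98 included, share another, as do miR-16 with miR-195, miR-17 with miR-20a, and miR-103 with miR-107. The raised miR-23a, miR-27a and miR-24 lie side by side on the plus strand of chromosome 8, at chr8:84208563-84208583, chr8:84208727-84208747 and chr8:84208875-84208896. The mature miR-24 is also made beside miR-27b on chromosome 13, at chr13:63301251-63301272, and the array does not tell the 2 copies apart. The sequence of miR-21 lies on the minus strand at chr11:86584120-86584141.

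Lowered miRNAs had a different look, with runs of alternating U and G. The sequences of 12 of the 31 lowered miRNAs were at hand, and the 9 of them with at least 3 UG units in a row are shown here. Capitals mark the longest alternating run.
miR-466j: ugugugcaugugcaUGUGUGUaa
miR-1187: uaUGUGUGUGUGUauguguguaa
miR-466k: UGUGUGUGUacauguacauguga
miR-32*: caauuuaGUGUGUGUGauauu
miR-574-5p: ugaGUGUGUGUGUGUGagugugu
miR-3082-5p: gacagaGUGUGUGUGUcugugu
miR-672: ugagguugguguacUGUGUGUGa
miR-467h: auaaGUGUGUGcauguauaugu
miR-669n: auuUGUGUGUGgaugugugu
The longest run was 13 bases in miR-574-5p (plus strand, chr5:64970328-64970350) and 7 bases in miR-466j and miR-467h. This feature was looked for after the lowered miRNAs were known, so its counts below are a description.

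The arrays themselves differed between the surgeries on day 7. Found means here that 2 or 3 of the 3 spots of a miRNA had no negative scanner flag. The TAB arrays found 507 and 513 miRNAs and the sham arrays 632 and 618. The 75th percentile of raw intensity was 204 and 213 on the TAB arrays against 362 and 337 on the sham arrays. Arrays of the other days ranged from 180 to 288 for TAB and from 303 to 444 for sham, so the dimmer TAB arrays were not particular to day 7. Raw intensity was higher on both TAB arrays than on both sham arrays for 53 miRNAs and lower for 762. The part of this brightness in the calls was not tested, and the median difference over all miRNAs was -0.01 after quantile normalization but -0.31 without scaling and 0.44 when arrays were scaled to their 75th percentile. Spike-in probes added to the RNA differed by -0.91 to 0.04 (raw log2), with 4 of 5 lower on the TAB arrays. Probes for other small RNAs such as U6 and U1 differed by -1.24 to 0.64, with 9 of 13 lower on the TAB arrays.

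The counts of raised and lowered miRNAs moved with that choice, and the signs of the called miRNAs were kept. The rule called 32 raised and 27 lowered with the 75th percentile, 7 raised and 86 lowered with quantile normalization within each surgery, and 2 raised and 112 lowered without scaling. All 35 raised miRNAs kept a positive difference and all 31 lowered miRNAs a negative one under these 3 scalings. They were called on these same arrays, so the kept signs are a description. The median over all miRNAs was -0.25 within each surgery and -0.31 without scaling, which favours a negative sign. At the 75th percentile it was 0.44, which favours a positive one. In raw intensity, 31 of the 35 raised miRNAs were brighter on both TAB arrays than on both sham arrays, and all 31 lowered miRNAs were dimmer. The least raised miRNA was miR-5097 with a difference of 0.97, beside miR-222 with 0.94 just inside the limit. The least lowered was miR-669n with -1.02, beside miR-466i-5p with -0.95.

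**Figure D1:**
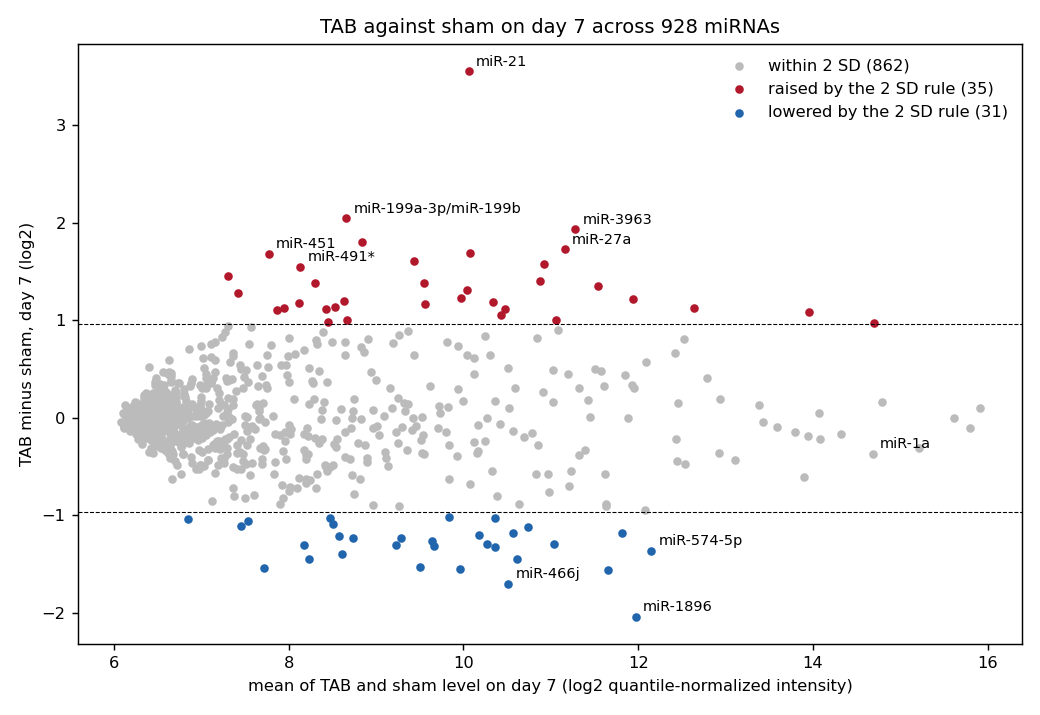
TAB minus sham difference on day 7 (y axis, log2) against the mean level of both surgeries (x axis, log2 normalized intensity) for 928 miRNAs, 1 point each, with dashed lines at 2 SD (0.96). The 35 raised and 31 lowered miRNAs lie outside the lines, with miR-21 far above the rest at 3.55 and miR-1896 lowest at -2.04.

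The 2 arrays of a surgery agreed closely. Their levels correlated across the 928 miRNAs at r = 0.998 for TAB and r = 0.994 for sham, against r = 0.964 between TAB and sham. Both TAB arrays lay above both sham arrays for 312 miRNAs (33.6%) and below them for 331 (35.7%), so arrays that do not overlap were common and by themselves mark little. A limma fit with the spread between repeated arrays as its error and Benjamini-Hochberg adjustment passed 163 miRNAs as higher (17.6%) and 150 as lower (16.2%), all 35 raised and 31 lowered miRNAs among them. That error holds only what differed between repeated arrays of 1 RNA and leaves out differences between hearts. The step at which the repeated arrays were split is not given in the sources used here. The split of these calls followed the scaling, with 559 higher and 103 lower at the 75th percentile, 54 and 526 with quantile normalization within each surgery, and 27 and 548 without scaling.

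With the spread of the other days as its error, far fewer passed. A limma test of the day 7 difference against 0, in which the variation of the difference among days 3, 5, 14 and 28 stands in for the missing replicates, passed 2 miRNAs as raised (0.216%) and 1 as lowered (0.108%), with 158 at an unadjusted p under 0.05. These were miR-199a-3p/miR-199b, miR-3072 and miR-1896. Because that spread also holds any change over time, a miRNA whose difference moved from day to day, such as miR-21, has a large error there.

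The largest difference of the day belonged to miR-21, which is known for its rise in fibroblasts of the failing heart. Its level was 11.82 and 11.86 on the TAB arrays and 8.46 and 8.10 on the sham arrays. No array of 1 surgery came near the other, and raw intensity was 2636 and 2717 against 448 and 320. The difference was 3.55, an 11.8-fold higher level, with a standard error (SE) of 0.48 and an adjusted p of 0.073 in limma's test against 0. It ranged from 2.82 without scaling to 3.62 with normexp background correction. The other strand of its hairpin, miR-21*, lay at 7.20 and 7.21 against 6.50 and 6.49, and only 1 of the 2 sham arrays found it.

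The miR-199 family followed. A common probe for miR-199a-3p/miR-199b read 9.71 and 9.66 on the TAB arrays and 7.69 and 7.58 on the sham arrays, and it does not tell apart the loci that make this 3p sequence. The difference was 2.05, a 4.13-fold higher level (SE 0.19), and it rose in the test against 0 with an adjusted p of 0.043 (limma). That p was 0.096 without scaling, 0.060 with no filter on flags, 0.108 without day 3 and 0.072 without day 5. From the other arm, miR-199a-5p stood at 9.76 and 9.73 against 7.98 and 7.90, a difference of 1.81 (adjusted p = 0.062, limma), and miR-199b* at 9.01 and 8.98 against 7.65 and 7.58, a difference of 1.38. In contrast, miR-214, which is transcribed together with miR-199a, had 9.20 and 9.42 against 8.92 and 9.08, a difference of 0.31 that turned to -0.61 without scaling. Of the 7 members of the list of miR-21, miR-199 and miR-214, 4 were raised and none lowered, and the median difference was 1.38 against -0.01 over all miRNAs. All 7 differences were positive, and 5 stayed so without scaling or with quantile normalization within each surgery.

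All listed members of the miR-23, miR-27 and miR-24 clusters were raised, a call that depended on the scaling. Members of both clusters are known from vessels and from muscle growth, and miR-23a from hypertrophy of cultured heart muscle cells. All 5 listed members passed the 2 SD rule, with differences between 1.35 and 1.73 and a median of 1.58. The opposite strands miR-23a*, miR-27a* and miR-27b*, which are not on the list, had -0.16, 0.04 and -0.07 and were not called. The level of miR-27a was 12.10 and 11.95 on the TAB arrays against 10.04 and 10.55 on the sham arrays, a difference of 1.73 (adjusted p = 0.188, limma against 0). The level of miR-27b was 10.91 and 10.94 against 9.25 and 9.22, a difference of 1.70 with the same adjusted p of 0.188 (limma). For miR-23b the arrays read 11.64 and 11.78 against 10.13 and 10.14, a difference of 1.58 (adjusted p = 0.112, limma). Both TAB arrays lay above both sham arrays for all 5, as they did for 33.6% of all 928 miRNAs. All 5 kept a positive difference under the 3 other scalings. The 2 SD rule called 5 of them at the 75th percentile, 2 with quantile normalization within each surgery and none without scaling, where miR-27a had 0.86, miR-27b 0.83 and miR-23b 0.83. None passed the test against 0.

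**Figure D2:**
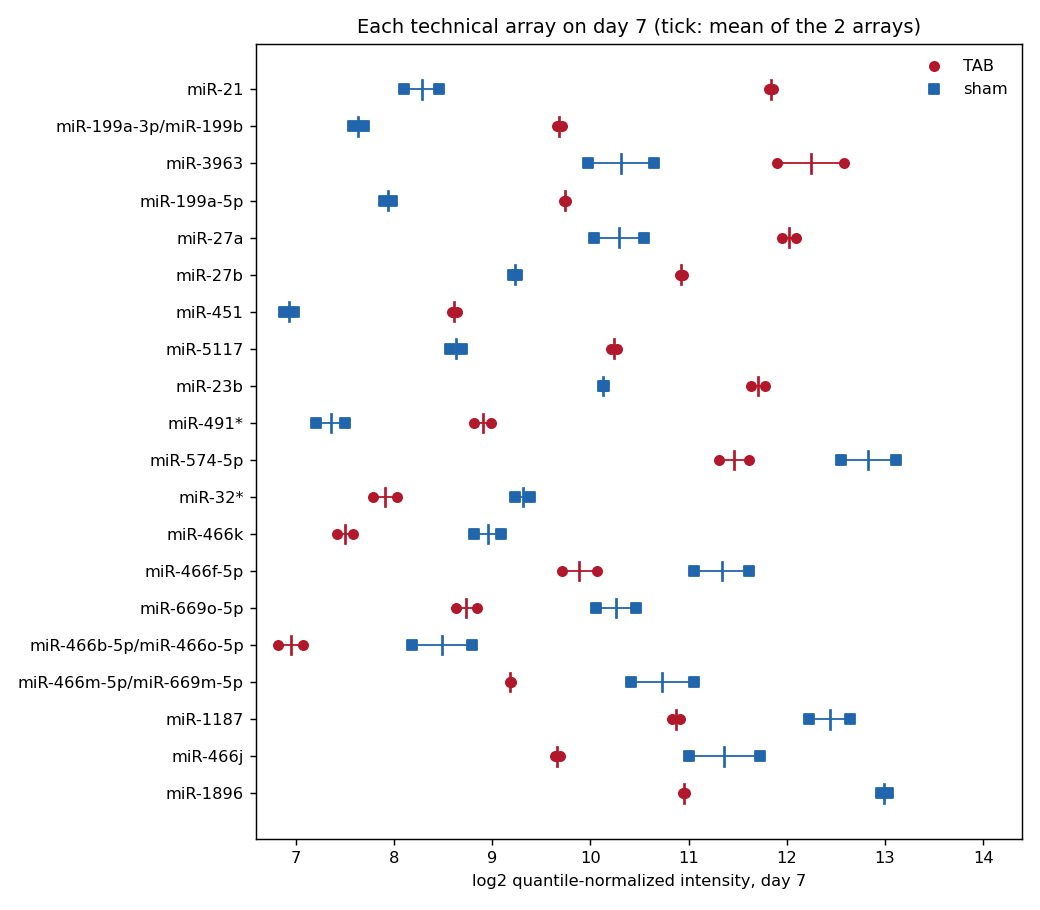
Level on each of the 4 arrays of day 7 (x axis, log2 normalized intensity; circles TAB, squares sham; ticks mark the mean of the 2 arrays) for the 10 most raised and 10 most lowered miRNAs. Rows were taken only from miRNAs whose TAB and sham arrays do not overlap, so that separation is no result. The gap between the 2 arrays of a surgery is widest for miR-466j and miR-3963.

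Several large families had positive differences that were smaller. In the let-7 family, whose members are known to restrain growth genes, 4 of 9 were raised and the median difference was 0.84. The level of let-7a was 13.20 and 13.20 against 12.15 and 11.99, and that of miR-98 was 10.10 and 10.20 against 8.76 and 9.21. All 9 members had a positive difference, but only 4 of 9 did without scaling. In the miR-15 family, of which miR-195 enlarges the heart when it is overexpressed in mice, 2 of 7 were raised with a median of 0.78. The level of miR-16 was 10.63 and 10.55 against 9.59 and 9.14, a difference of 1.22, and that of miR-195 was 9.12 and 9.34 against 8.04 and 8.03, a difference of 1.20. Without scaling 4 of the 7 members stayed positive.

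The miR-17 cluster with its paralogs is known for driving cell division, and miR-17 and miR-20a were raised among its 12 members with differences of 1.18 and 1.11, and the median was 0.56. Without scaling 7 of the 12 had a positive difference, against 11 after quantile normalization over all arrays. Both miR-103 and miR-107, which act on metabolic genes, were raised with 0.98 and 1.14 and stayed positive under every scaling. Of the miR-29 family, which targets collagens, miR-29b alone was raised with 1.06, while miR-29a at 0.48 and miR-29c at 0.62 lay within the limit. In the miR-30 family, abundant in heart muscle, miR-30b with 1.39 and miR-30c with 1.31 were raised, whereas miR-30a, miR-30d and miR-30e had 0.50, 0.31 and 0.18. One of 5 members of the list of miR-99, miR-100 and miR-125 was raised, miR-125a-5p with 1.11, and none of the 2 miR-26 or 4 miR-181 members. All members of the miR-26, miR-29, miR-30, miR-99 to miR-125 and miR-181 lists had a positive difference, and without scaling 1 of 2, 1 of 3, 2 of 5, 2 of 5 and none of 4 did.

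The miRNAs of heart muscle itself were neither raised nor lowered. None of 7 passed the rule, and the median difference was -0.18 against -0.01 over all miRNAs. As markers of the labelled tissue, miR-1a, miR-133a, miR-133b, miR-208a-3p and miR-378 all lay between 12.34 and 15.00 on the 4 arrays. The rest of the list was dimmer, with miR-499 between 9.34 and 9.82 and miR-208b between 6.71 and 7.78. The level of miR-1a was 14.58 and 14.43 on the TAB arrays against 15.00 and 14.74 on the sham arrays, a difference of -0.37, and that of miR-133a was 13.97 and 13.97 against 14.74 and 13.64, where the arrays overlapped. The one closest to the limit was miR-208b, encoded within the gene of the slow myosin heavy chain, with 7.78 and 7.64 against 6.95 and 6.71 and a difference of 0.88. Its differences on days 14 and 28 were 1.25 and 2.01. Its counterpart within the gene of the fast myosin, miR-208a-3p, had 12.59 and 12.48 against 12.34 and 12.42, a difference of 0.15, and miR-499 had 0.33. Signs in this list depended on the scaling: 3 of 7 members were positive after quantile normalization over all arrays, 6 at the 75th percentile and 1 without scaling.

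Among miRNAs tied to the growth of heart muscle in mice, miR-221 was raised with 1.12 and miR-222, its neighbour on the X chromosome, had 0.94. The differences of miR-212-3p and miR-22 were 0.17 and -0.09. The level of miR-132 was 6.81 and 6.88 on the TAB arrays and 6.46 and 6.33 on the sham arrays, neither of which found it. Of the stress and hypoxia list none of 4 passed, with 0.67 for miR-34a and -0.24 for miR-210, which hypoxia induces. Of the vessel list none of 4 passed, with 0.81 for endothelial miR-126-3p and 0.00 for miR-143 of smooth muscle. In the inflammation-induced list, miR-146a, miR-146b and miR-155 had 0.44, 0.57 and 0.10, and none passed. Without scaling, 1 of 4 stress and hypoxia, 1 of 4 vessel and 1 of 3 inflammation-induced miRNAs had a positive difference, and the medians turned from 0.36, 0.60 and 0.44 to -0.13, -0.16 and -0.16.

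Markers of blood cells stood beside these results. White cell markers had 1 raised member of 5, miR-142-3p, at 8.01 and 8.05 on the TAB arrays and at 6.56 and 6.58 on the sham arrays, 1 of which did not find it. Myeloid miR-223 had a difference of 0.83 and lymphocyte miR-150 of -0.18, and 4 of the 5 were positive, 3 without scaling. Among red cell markers, miR-451, which maturing red cells make in quantity, was raised at 8.64 and 8.59 against 6.98 and 6.88, a difference of 1.68 (adjusted p = 0.073, limma against 0). Its cluster partner miR-144 had 6.77 and 6.82 against 6.36 and 6.28 and was found on neither sham array, and the probe of miR-486, which it shares with miR-3107, had -0.36. The part of blood in the raised miRNAs was not tested. Defining markers of other tissues were low: 7 of 10 were not found on both arrays of either surgery, and the median of the 10 differences was -0.0041. The liver marker miR-122 was found on the sham arrays only, at 7.10 and 6.85, with 6.39 and 6.31 on the TAB arrays. Both surgeries found miR-206, at 7.28 and 7.26 on the TAB arrays against 7.70 and 7.79 on the sham arrays. They also found miR-128, at 6.89 and 6.79 against 6.58 and 6.53.

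The list for the Dlk1-Dio3 locus, a large imprinted miRNA cluster of chromosome 12, has 44 measured members, which gave no call in either direction. Of these, 20 were found on both arrays of a surgery. The median difference of the 44 was 0.05, and their values ran from -0.54 for miR-665 to 0.65 for miR-668. The list does not hold every measured miRNA of this region. It leaves out opposite strands such as miR-667* with -0.82 and miR-665* with 0.10. The raised miR-3072, with 1.28 and at chr12:109747928-109747949, is not on it either. The sign of these small differences followed the scaling, with 26 of 44 positive after quantile normalization over all arrays, 42 at the 75th percentile and none without scaling.

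**Figure D3:**
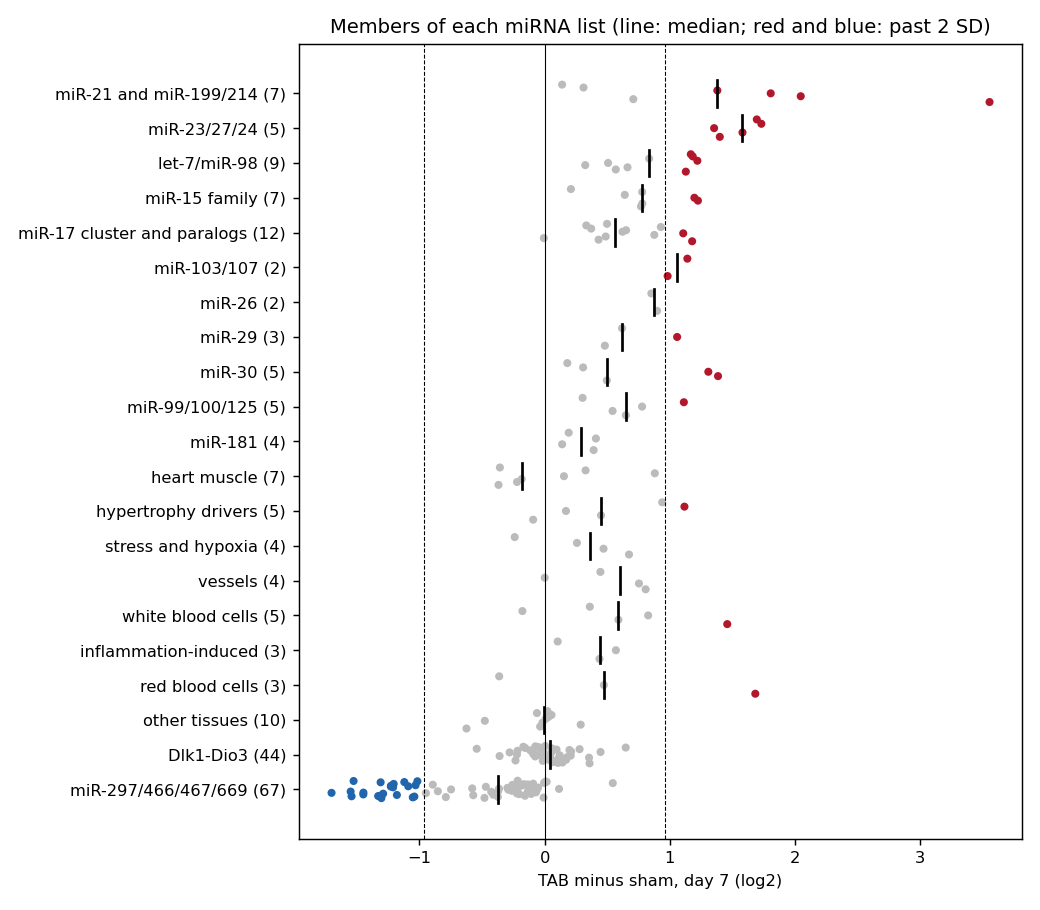
TAB minus sham difference on day 7 (x axis, log2) for every measured member of 21 miRNA lists, with the number of members in brackets; black lines are medians, dashed lines the 2 SD limit, red raised and blue lowered members. The 5 listed members of the miR-23/27/24 clusters all lie right of the limit, and all lowered list members sit in the families of miR-297, miR-466 and their relatives.

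The lowered miRNAs were mostly of 1 kind. Of the 31, 22 belonged to the families of miR-466, miR-669, miR-467 and miR-297, repeat-rich miRNAs of the mouse, many of them encoded in an intron of Sfmbt2. This list has 67 measured members, of which 59 were found on both arrays of a surgery. None was raised, where 3.77% of all 928 miRNAs were raised and 3.34% lowered. Both TAB arrays lay below both sham arrays for 55 and above them for 2, where 35.7% and 33.6% of all miRNAs did so. The median difference over the 67 was -0.37 on day 7, where the values ran from -1.70 to 0.54. On days 3, 5, 14 and 28 it was -0.72, -0.40, 0.03 and -0.55, so the list as a whole was not lowest on day 7. The day 7 median was -0.26 at the 75th percentile, with 24 of 67 positive, against 5 positive after quantile normalization over all arrays. It was -0.91 within each surgery and -1.01 without scaling, with none positive. Under these 3 scalings 19, 28 and 30 members were lowered. The level of miR-466j was 9.64 and 9.69 on the TAB arrays against 11.73 and 11.00 on the sham arrays, a difference of -1.70 (adjusted p = 0.073, limma against 0). The 2 sham arrays differed from each other by more than the TAB arrays did, and both stayed far above them. For miR-466m-5p/miR-669m-5p the levels were 9.18 and 9.19 against 11.05 and 10.41, a difference of -1.55, and for miR-669o-5p they were 8.63 and 8.85 against 10.06 and 10.47, a difference of -1.53. The lowered miR-466a-5p/miR-466p-5p was found on no TAB array, with 7.41 and 7.33 on the sham arrays. The other 3 of the 10 most lowered miRNAs in these families, miR-466b-5p/miR-466o-5p, miR-466f-5p and miR-466k, had differences of -1.54, -1.45 and -1.45. Close relatives in these families differ by few bases and may share signal on an array, so their calls are not independent of each other.

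The most lowered of all miRNAs on the day was miR-1896, which lies outside those families. Its level was 10.94 and 10.97 on the TAB arrays against 12.96 and 13.03 on the sham arrays, a difference of -2.04 with an SE of 0.11, or a 4.1-fold lower level. It fell in the test against 0 with an adjusted p of 0.0097 (limma), and that p was 0.084 without day 3. The other 8 were miR-1187, miR-32*, miR-574-5p, miR-3082-5p, miR-672, miR-1894-5p, miR-670 and miR-5127. The level of miR-1187 was 10.83 and 10.91 against 12.65 and 12.23, a difference of -1.56, that of miR-32* was 7.79 and 8.03 against 9.39 and 9.23, a difference of -1.40, and that of miR-574-5p was 11.62 and 11.31 against 12.55 and 13.11, a difference of -1.36.

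The UG runs shown above went with the lowered side. The motif UGUGUG was searched on the strand of the mature miRNA only, with overlapping matches counted once, and 1.67% of the 1679 mature miRNA names of the RefSeq table hold it. Of the 928 miRNAs, 642 could be placed as with or without the motif, 15 with it. A single matched sequence placed 317 of the 642. The others entered as without it because both strands of their hairpin lack it. A name of unclear strand could not enter as with it, so the placement was one-sided. Of these 15, 9 were lowered, none was raised and 13 had a negative difference, with a median of -1.21. Of the 627 without it, 3 were lowered and 29 were raised, with a median of 0.01. Those 3 were miR-1896, miR-1894-5p and miR-670. The 6 members with the motif that were not lowered were miR-3097-5p with -0.89, miR-206 with -0.48, miR-493 with -0.28, miR-294 with -0.21, miR-291a-3p with 0.16 and let-7b with 0.57, and the longest run in any of them was 8 bases. Sequences of most miR-297, miR-466 and miR-669 members were not used here.

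Set beside the other days, day 7 looked like the course as a whole. Its differences correlated across the 928 miRNAs with those of days 3, 5, 14 and 28 at r = 0.886, 0.817, 0.612 and 0.838. The SD of the differences was 0.48 on day 7, within the range of 0.35 to 0.51 of the other days. Of the 35 raised miRNAs, 33 had a positive difference on all 4 other days, and of the 31 lowered miRNAs 28 had a negative one, whereas 426 of all 928 miRNAs (45.9%) kept the sign of day 7 on all 4. A given miRNA had its highest difference on day 7 in 144 cases and its lowest in 126, against 257 and 271 for day 14. Of the 35 raised, 22 (62.9%) were also raised on day 3, which is 73.3% of the 30 raised then, and 24 (68.6%) on day 28, which is 53.3% of the 45 raised then. Of the 31 lowered, 25 (80.6%) were also lowered on day 3, 67.6% of the 37 lowered then, but 9 (29%) on day 28, 64.3% of the 14 lowered then, and 4 (12.9%) on day 14, 17.4% of 23.

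The sham arrays of day 14 stood apart from the other sham arrays. On the first principal component of all arrays they scored 1.31 and 2.16, where the other sham arrays scored at least 6.78 and every TAB array was below 0. The test of day 7 against 0 passed 7 raised and 18 lowered miRNAs without day 14, in place of 2 and 1, and no miRNA without day 3.

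Whether a call was shared between days was counted next. On all 5 days 9 miRNAs were raised, and on day 7 alone 5. Those of all days were miR-21, miR-199a-3p/miR-199b, miR-199a-5p, miR-199b*, miR-20a, miR-23b, miR-27b, miR-5117 and miR-98. Those of day 7 alone were miR-3963, miR-491*, miR-3072, miR-375* and miR-615-5p. Only miR-1896 was lowered on all 5 days, and only miR-3082-5p on day 7 alone. The least described of the first group, miR-5117, had 10.27 and 10.21 on the TAB arrays of day 7 against 8.69 and 8.57 on the sham arrays, a difference of 1.61, with 1.35, 1.96, 1.08 and 1.65 on the other days. For miR-375*, the minor strand of an islet miRNA, the levels were 11.53 and 11.59 against 10.39 and 10.72, and its difference of 1.00 stood beside 0.28, 0.21, 0.46 and -0.01 on the other days. The level of miR-3082-5p was 10.49 and 10.29 against 11.78 and 11.59, a difference of -1.29 beside -0.72, -1.005, -0.64 and -0.89 on the other days. The TAB and sham arrays of day 7 did not overlap for any of these 3. Among all 928 miRNAs, TAB lay above in this way for 33.6% and below for 35.7%. The 2 SD rule has an edge, so a miRNA raised on day 7 alone can lie just below the limit on another day, as miR-615-5p did with 1.00 on day 7 and 0.93 on day 28.

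A limma test of the day 7 difference against the mean of the other 4 days asked what set the day apart. It called none of 928 miRNAs (0%), with 15 above and 4 below at an unadjusted p under 0.05, and none of the other scalings, filters, left-out days or left-out arrays gave a call. The 6 miRNAs with the most positive and the 6 with the most negative departure are described next, without a claim that they differ.

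The largest departure was that of miR-3963. Its level was 11.90 and 12.59 on the TAB arrays and 9.98 and 10.65 on the sham arrays, so replicate 2 was the brighter array in both surgeries. The difference was 1.93 on day 7, a 3.82-fold higher level, and 0.59, 0.13, 0.68 and 0.79 on days 3, 5, 14 and 28. The day 7 value was 1.36 with quantile normalization within each surgery and 1.00 without scaling. Day 7 exceeded the mean of the other days by 1.38 (SE 0.27, unadjusted p = 0.0039, limma). Both levels lay outside those of the other days: the TAB level of 12.25 was above the 11.22 to 11.40 of the other TAB days, and the sham level of 10.31 was below the 10.57 to 11.09 of the other sham days. The sequence of miR-3963 shares a run of 8 bases with that of miR-3968, which was also raised on day 7, with 14.43 and 14.58 against 13.11 and 13.73. No other mature miRNA name in the RefSeq table holds this run, which capitals mark.
miR-3963: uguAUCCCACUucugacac
miR-3968: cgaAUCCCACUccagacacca
For miR-3968 the difference was 1.09 on day 7 and 1.41 on day 14, so it did not share the day 7 peak.

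The second was miR-491*, the 3p strand of its hairpin, a miRNA of moderate level in the ventricle. It read 8.82 and 8.99 on the TAB arrays and 7.21 and 7.50 on the sham arrays. The difference was 1.55 on day 7 and 0.58, 0.10, -0.02 and 0.47 on days 3, 5, 14 and 28, and the day 7 value was 0.87 without scaling. The departure was 1.27 (SE 0.26, unadjusted p = 0.0052, limma), again with a higher TAB level (8.91, other days 7.91 to 8.34) and a lower sham level (7.36, other days 7.66 to 7.97). The sequence of miR-491* is given with those of miR-3072 and miR-1896, which passed the test against 0 and were not yet shown. Capitals mark the seed.
miR-491*: cUUAUGCAagauucccuucuac
miR-3072: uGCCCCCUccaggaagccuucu
miR-1896: cUCUCUGAuggugggugaggag
The level of miR-3072 was 8.13 and 8.00 on the TAB arrays against 6.74 and 6.83 on the sham arrays. It rose by 1.28 in the test against 0 (SE 0.11, adjusted p = 0.043, limma), and the departure from the other days, 0.49, lay in TAB, where the level of 8.06 stood above the 7.40 to 7.62 of the other days. Its adjusted p was 0.151 without scaling, 0.117 without day 28, 0.108 without day 3 and 0.058 without day 5.

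The other 4 with a positive departure were smaller or less certain. miR-21 exceeded its mean of the other days by 0.84 (unadjusted p = 0.18, limma), and its day 7 difference of 3.55 equalled that of day 5, 3.56. For miR-129-2-3p the difference was 0.74 on day 7 against a mean of -0.14, and for miR-505-5p it was 0.51 against -0.43. On days 3, 5, 14 and 28, miR-129-2-3p had -0.32, -0.52, 0.19 and 0.06. On the same days miR-505-5p had 0.06, -0.55, -1.13 and -0.10, so day 14 weighed most in its mean. Both day 7 signs depended on the scaling, with -0.02 and -0.12 under quantile normalization within each surgery and -0.22 and -0.19 without scaling. miR-3099 had 10.12 and 10.04 on the TAB arrays and 9.90 on both sham arrays, a difference of 0.17, where the other days had -0.62, -0.86, -0.45 and -0.51. After quantile normalization over all arrays, day 7 was the one day on which miR-3099 had a positive difference, but its day 7 value was -0.03 at the 75th percentile, -0.64 with quantile normalization within each surgery and -0.77 without scaling. Its raw intensity was 677 and 731 on the TAB arrays and 1318 and 1091 on the sham arrays, which are the brighter ones.

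**Figure D4:**
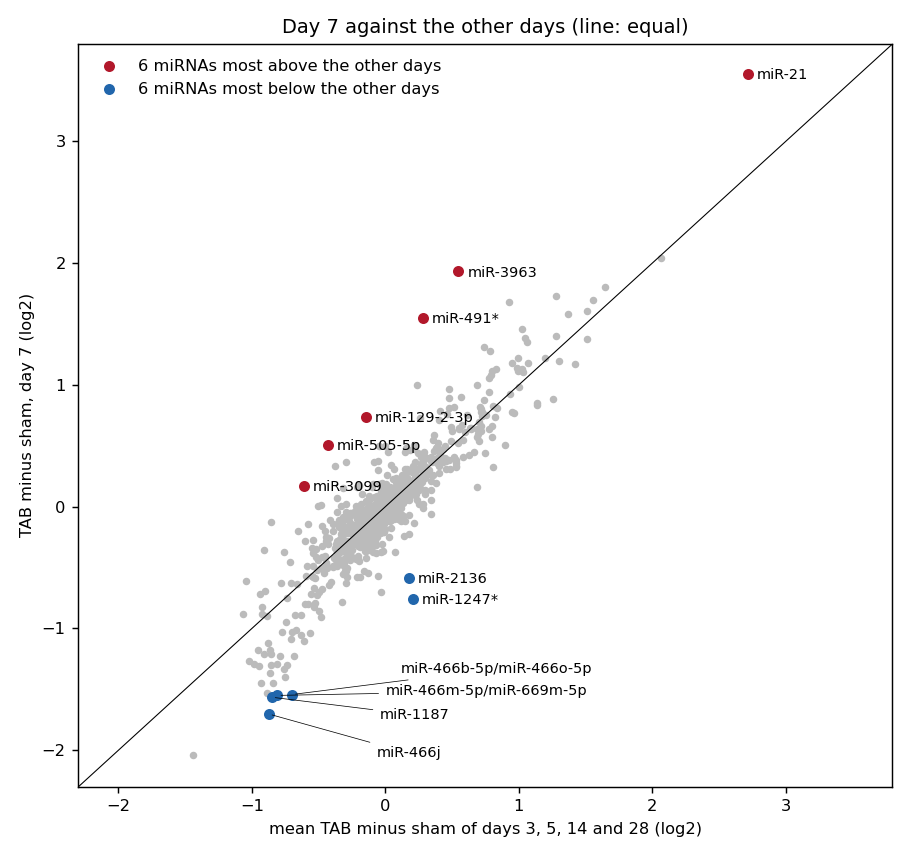
Day 7 difference (y axis, log2) against the mean difference of days 3, 5, 14 and 28 (x axis, log2) for 928 miRNAs; the line marks equal values, and coloured points are the 6 miRNAs farthest above (red) and below (blue) it. miR-3963 and miR-491* stand 1.38 and 1.27 above the line, and none of the departures passed the adjusted test.

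On the negative side, 4 of the 6 were lowered miRNAs, namely miR-466b-5p/miR-466o-5p, miR-466j, miR-466m-5p/miR-669m-5p and miR-1187, which lay 0.84, 0.83, 0.74 and 0.71 below their mean of the other days. The remaining miR-1247* and miR-2136 had a difference of -0.76 and -0.58 on day 7 against means of 0.20 and 0.17, and neither passed the 2 SD rule on that day. On days 3, 5, 14 and 28, miR-1247* had -0.45, 0.46, 1.12 and -0.31, and miR-2136 had 0.04, 0.24, 0.74 and -0.32. Day 14, whose sham arrays stood apart, thus held the highest value of both, and both were raised by the rule then.

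For miR-466j and miR-1187 the sham level stood apart and the TAB level did not. The sham level of miR-466j was 11.36 on day 7 and 10.55 to 10.75 on the other days, while its TAB level of 9.66 lay within the 9.51 to 10.13 of the other days. For miR-1187 the sham level was 12.44 against 11.67 to 11.98, and the TAB level 10.87 against 10.63 to 11.35. Of the 67 members of the repeat-rich list, 23 (34.3%) had their highest sham level of the 5 days on day 7, where 14.1% of all miRNAs did. The TAB level was lowest then for 8 (11.9%), where 17.9% of all did so. The 22 members lowered on day 7 made up 18 of these 23 and 1 of these 8. Among the 31 lowered miRNAs, chosen for their day 7 difference, the sham level was highest on day 7 for 26 and the TAB level lowest for 3. That choice favours a high sham or a low TAB level on day 7, so neither these counts nor the 23 of 67 support anything by themselves. The 2 sham arrays of the day disagreed on several of them: array 1 read higher than array 2 for miR-466j, miR-466m-5p/miR-669m-5p, miR-466f-5p and miR-1187, and lower for miR-669o-5p and miR-574-5p. Limma compared TAB day 7 with the other TAB days and sham day 7 with the other sham days. Neither called a miRNA (0% each). At an unadjusted p under 0.05, TAB had 19 above and 4 below, and sham had 16 above and 6 below, with miR-466j, miR-1187, miR-297a and miR-3082-5p among the 16.

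**Figure D5:**
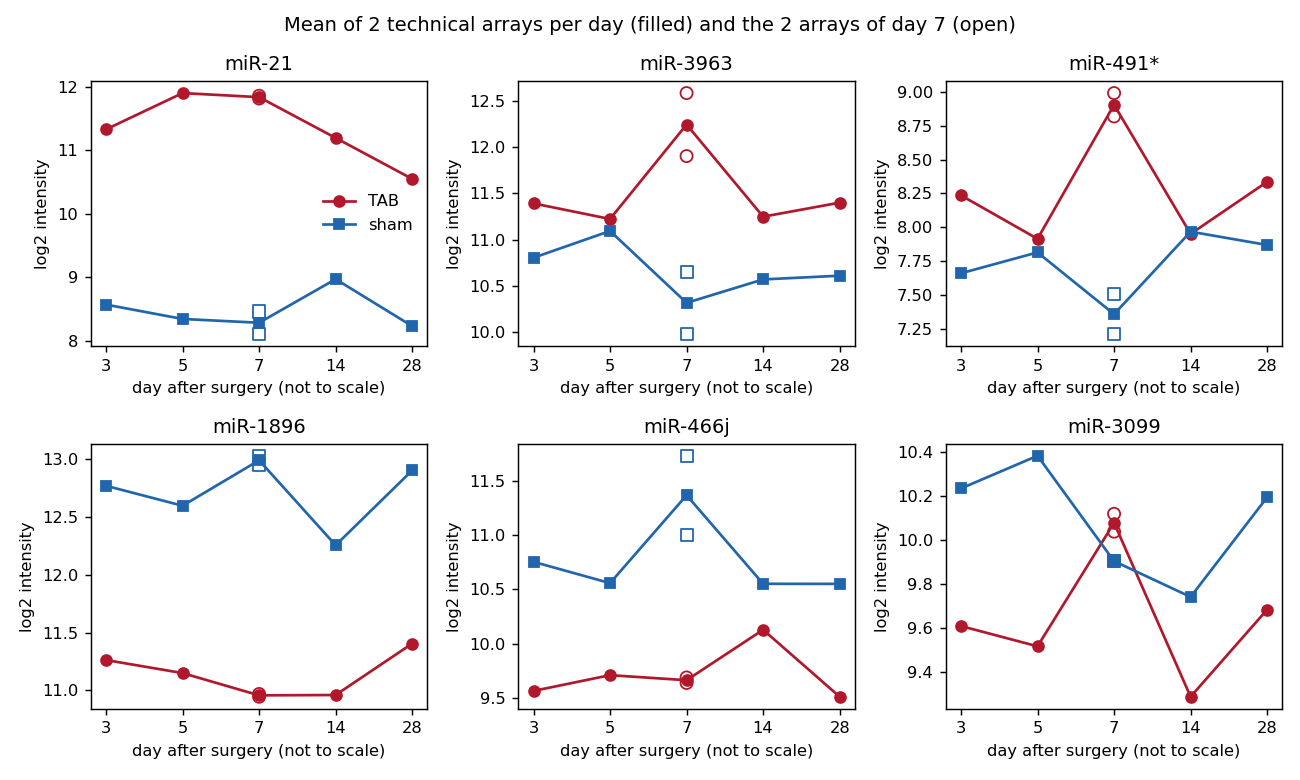
Level (y axis, log2 normalized intensity) on each of the 5 days (x axis, day after surgery) for 6 miRNAs; filled points are means of the 2 technical arrays for TAB (red) and sham (blue), open points the single arrays of day 7. miR-3963 and miR-491* have their widest gap between the surgeries on day 7, miR-466j peaks in sham at 11.36, and miR-3099 is the 1 panel in which TAB lies above sham on day 7 only, a position that the 75th percentile, quantile normalization within each surgery and no scaling turn to -0.03, -0.64 and -0.77.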

How the data were processed

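Cy5-labelled total RNA of left ventricles was hybridized to 20 miRNA arrays, and all 20 entered the normalization. As deposited by the authors, the raw file held 1 intensity value and 1 scanner flag per spot, with 3 spots for each mouse probe, without background subtraction or normalization. A second deposited table held the authors' processed intensity per miRNA, which combined spots by their median after removal of miRNAs with negative flags and was quantile-normalized and scaled, and it served as an alternative. In the raw data, 158 of 1086 mouse probes had a negative flag on every spot of all 20 arrays and were left out. This gave 928 miRNAs (18 probes name several), which can still hold negative flags on some spots or arrays. The median of the 3 spots was taken, log2-transformed and quantile-normalized over the 20 arrays, and the 2 technical arrays were averaged.

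Tests were two-sided and used limma 3.58.1 in R 4.3.3 with Benjamini-Hochberg adjustment over the 928 miRNAs at 0.05. Day 7 against 0 and against the other days used the 5 daily differences (3 residual degrees of freedom), each surgery against its other days the 10 averaged samples (6), and the array spread the 20 arrays (10). The scripts were tested on simulated data. With 1 RNA per surgery on day 7, the p-values borrow the spread of other days or of repeated arrays. No count or depth exists for arrays, and their number limits the precision.

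Named miRNAs were the 10 most raised and 10 most lowered with arrays that do not overlap, the 6 farthest above and 6 farthest below the other days, and the members of 21 lists. Other miRNAs with values lie next to the 2 SD limit, were called on all 5 days or on day 7 alone, or hold the UG motif, and were named after their values were seen. The members and lists were chosen with earlier results of these data known, so no p adjusted over a list alone is given. For TAB day 14, title and condition label give different days, and the title was used. Alternatives changed the scaling, background correction, spot summary, flag filter and the days or arrays used.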

Additional observations from a re-analysis of the deposited data

Results flagged for a closer look

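For the 25 miRNAs named for the size of their difference or departure, the TAB levels, the sham levels and the differences over the 5 days (75 series of 5 values) were searched for a day far from the others, meaning a gap to its neighbour above 0.71 of the whole range. Chance marks about 1 in 20 series that were not chosen for any day, but these miRNAs were chosen for their day 7 difference or departure. That choice favours marks on day 7, so that rate does not apply to them and the marks are a description.

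On day 7 this marked the TAB level of miR-3963, 12.25, with a gap of 0.827 of the range. It marked the difference of miR-1896, -2.037, with a gap of 0.714. It also marked the sham levels of 3 members of the miR-466 family. These were 11.37 for miR-466j (0.751), 10.73 for miR-466m-5p/miR-669m-5p (0.744) and 11.34 for miR-466f-5p (0.849), each the highest of its sham days. On day 14 it marked the sham levels of miR-199a-5p, 8.356 (0.875), and of miR-27b, 10.23 (0.908), and the sham arrays of that day stood apart as a whole.

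miR-3099 was marked because its day 7 difference of 0.1737 was opposite in sign to that of every other day and the normalized TAB arrays lay above the sham arrays. The sign turned under other scalings, with -0.03 at the 75th percentile, -0.64 with quantile normalization within each surgery and -0.77 without scaling, and the raw TAB arrays (677 and 731) lay below the raw sham arrays (1318 and 1091). The difference between day 7 and the other days had an unadjusted p of 0.0081 and did not pass after adjustment (limma, adjusted p = 1.0), and array spread alone did not separate TAB from sham on day 7 (adjusted p = 0.55, limma).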

How the results depend on the processing

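The signs of all 35 raised and 31 lowered miRNAs were kept under 8 processing alternatives and with each of the 4 day 7 arrays left out, but their numbers followed the scaling. These miRNAs were called on the same arrays, so the kept signs are a description. With quantile normalization within each surgery the 2 SD rule gave 7 raised and 86 lowered, without scaling 2 and 112, and among miRNAs found on day 7 22 raised. For the test against 0 (2 raised, 1 lowered), scaling to the 75th percentile gave 64 and 35, quantile normalization within each surgery 7 and 145, no scaling 1 raised, no flag filter 1 raised, and the miRNAs found on day 7 6 and 4. Leaving out day 3 gave 0 and 0, and leaving out day 14 gave 7 and 18. For the array spread (163 and 150), the 75th percentile gave 559 raised, quantile normalization within each surgery 54 and 526, and no scaling 27 and 548. The cause was not tested.

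With a day 7 array left out, the 2 SD rule gave 33 to 39 raised and 31 to 32 lowered, the test against 0 gave 2 to 4 and 1 to 6, and the array spread 114 to 123 and 103 to 119. The tests of day 7 against the other days, and of each surgery against its own other days, called 0 under the other scalings, filters and spot summaries and with days or arrays left out. The first also called 0 with the replicate block described next, chosen after seeing the data (lowest adjusted p 0.069, limma), and the other 2 were not run with it.

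Replicate numbers are shared between the surgeries but mark technical arrays, and deviations of arrays of the same number correlated at -0.011, 0.136, 0.181, -0.041 and 0.135 on days 3, 5, 7, 14 and 28, so they do not pair the samples. With a replicate block the test against 0, which then takes 10 differences between single arrays in place of 5 daily means, gave 68 raised and 67 lowered. Technical arrays of 1 RNA count as replicates there, so the change is one of unit as well as of the block. With the block the array spread gave 170 and 152. Dim miRNAs set the limit of what the arrays resolve: 614 of 928 were found on both arrays of a surgery on day 7.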
